A study of Homo sapiens with 8 samples.

Results

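The 54 genes described here encode proteins that start and copy the genome in S phase or carry cells through mitosis. They were chosen by symbol from a list of well-known proliferation genes, split into 27 genes of the G1/S class and 27 of the G2/M class, and all 54 were found among the 25603 genes of the table. They were measured by RNA-seq in HepG2, an established human hepatocarcinoma cell line. Cells were exposed for 4 days to UNC1999 and valemetostat tosylate, which both block the histone methyltransferases EZH1 and EZH2, each at 1 µM (EZHi), or to the DMSO vehicle, given as 0.2% in the sample labels. Each group had 4 libraries, numbered 1 to 4 in both groups, which the study describes as independent biological replicates of this 1 cell line. All cells of both groups were grown with serum, insulin and dexamethasone. The comparison asks how the transcripts of the cell division machinery differ when EZH1/2 activity is inhibited.

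Cells license replication origins in G1, when ORC, CDC6 and CDT1 load the MCM2-7 helicase onto DNA, and then fire them in S phase with CDC45 and the GINS complex. Entry into S phase is driven by cyclin D and cyclin E with their kinases, which free the E2F transcription factors from the retinoblastoma protein, whereas entry into mitosis depends on cyclin A and cyclin B with CDK1 and on the transcription factors FOXM1 and B-MYB. Spindle kinases, centromere proteins and kinesins then separate the chromosomes, and the spindle checkpoint holds the anaphase-promoting complex back until every chromosome is attached. In a dividing line such as HepG2 these genes are read together as a proliferation programme, and many of them peak in only 1 phase of the cycle. In bulk RNA, fewer cells in a phase and less RNA per cell cannot be told apart.

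The deposited values are log2, length-corrected expression levels, so that levels can be compared between genes, and a difference of 1 is a doubling. An estimated FPKM (fragments per kilobase of transcript, scaled to a common library size) was computed from each value for orientation. Among the 54 genes it had a median of 61.3 and was highest for TOP2A (606), the topoisomerase that untangles chromosomes, followed by CCND1 (256) and the helicase subunit MCM7 (190). For 49 genes it was at least 10, and the exceptions were E2F8 (8.76), E2F7 (8.02), E2F2 (6.44), CCNE2 (2.07) and NUSAP1 (0.177). The NUSAP1 value is uncertain because 86.8% of its exonic bases are shared with another annotated gene and counting ignored strand, as are those of TYMS (47.9%), CCNE2 (37.1%), MCM2 (23.6%), CDK2 (16.8%) and FOXM1 (15.9%). The 8 hepatocyte markers looked up were all present, at 156 to 16200 estimated FPKM, with a summed level of 22330 to 43320 in vehicle and 24500 to 39260 in EZHi libraries. Without the replicate block described below, 1 of the 8, FGB, was called higher (12.5%, against 8.85% of all genes). With the block FGB, APOA1 and APOB were called higher (37.5%, against 14.9% of all genes) and ALB lower (12.5%, against 15.1%). Of 8 leukocyte, endothelial and mesenchymal markers, PTPRC, CD68 and LUM had no row. PDGFRB was at 11.9 estimated FPKM, COL1A1 at 2.795, PECAM1 at 1.63, CDH5 at 0.999 and COL3A1 at 0.0518. Their summed level was 14.3 to 16.9 in vehicle and 17.8 to 20.5 in EZHi libraries. The 4 of these markers that were tested had differences of 0.042 (PECAM1, -0.15 after quantile normalization) to 2.28 (CDH5). The endothelial gene CDH5 was the only one called higher without the block (25.0% of the 4, against 8.85% of all genes). The part of these markers in the results below was not tested. Read depth per library cannot be recovered from normalized values.

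To show what the classes carry in front of their genes, promoter windows of RefSeq (GRCh38.p14, 250 bases before to 50 after a start site) were searched on both strands for 3 sets of letters, and 42 of the 54 genes had a window, 21 in each class. The cell cycle homology region (CHR, TTTGAA or TTCGAA), an element of G2/M promoters, was found for 15 of 21 G2/M genes (71.4%) and 2 of 21 G1/S genes (9.52%), against 19.5% of all genes with a window. E2F letters (TTTCCCGC, TTTCGCGC, TTTGCCGC or TTTGGCGC) were found for 13 of 21 G1/S genes (61.9%) and 3 of 21 G2/M genes (14.3%), against 3.99% of all. The CCAAT box was found for 15 of 21 G1/S genes (71.4%) and 19 of 21 G2/M genes (90.5%), against 39.7% of all. None of these words is contained in another. The 150 bases upstream of the start are given for 5 G2/M genes called lower in the paired fit described below, for the licensing genes CDT1 and CDC6, and for the 2 genes with the largest positive difference, CCNE1 and E2F7. They run 5′ to 3′ on the strand of the gene, with matches of any of the 3 sets in capitals. Their positions are CCNA2 chr4:121823884-121824033 (minus strand), BUB1 chr2:110678064-110678213 (minus strand), CENPA chr2:26785906-26786055 (plus strand), CCNB2 chr15:59104996-59105145 (plus strand), PLK1 chr16:23678739-23678888 (plus strand), CDT1 chr16:88803639-88803788 (plus strand), CDC6 chr17:40287729-40287878 (plus strand), CCNE1 chr19:29811841-29811990 (plus strand) and E2F7 chr12:77065570-77065719 (minus strand).
CCNA2: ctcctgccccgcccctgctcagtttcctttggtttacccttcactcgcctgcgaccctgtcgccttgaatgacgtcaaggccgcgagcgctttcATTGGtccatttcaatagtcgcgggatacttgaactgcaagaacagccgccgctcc
BUB1: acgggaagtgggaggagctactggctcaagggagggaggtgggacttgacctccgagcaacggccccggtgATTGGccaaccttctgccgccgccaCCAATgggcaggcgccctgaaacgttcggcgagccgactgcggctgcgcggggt
CENPA: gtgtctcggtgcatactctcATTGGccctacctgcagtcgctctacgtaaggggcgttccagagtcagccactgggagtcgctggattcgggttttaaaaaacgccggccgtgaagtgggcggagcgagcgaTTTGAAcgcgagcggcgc
CCNB2: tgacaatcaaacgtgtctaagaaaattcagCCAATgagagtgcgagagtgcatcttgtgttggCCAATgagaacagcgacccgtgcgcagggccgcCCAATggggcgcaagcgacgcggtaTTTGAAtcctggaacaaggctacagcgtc
PLK1: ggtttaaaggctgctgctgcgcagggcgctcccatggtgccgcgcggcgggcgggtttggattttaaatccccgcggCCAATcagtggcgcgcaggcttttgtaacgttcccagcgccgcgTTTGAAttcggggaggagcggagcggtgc
CDT1: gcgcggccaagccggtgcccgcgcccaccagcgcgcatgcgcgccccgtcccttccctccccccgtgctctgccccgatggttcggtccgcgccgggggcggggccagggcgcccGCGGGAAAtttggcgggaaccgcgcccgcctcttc
CDC6: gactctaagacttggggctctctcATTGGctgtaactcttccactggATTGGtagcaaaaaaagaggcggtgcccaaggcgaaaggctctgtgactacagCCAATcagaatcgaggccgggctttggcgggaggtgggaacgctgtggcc
CCNE1: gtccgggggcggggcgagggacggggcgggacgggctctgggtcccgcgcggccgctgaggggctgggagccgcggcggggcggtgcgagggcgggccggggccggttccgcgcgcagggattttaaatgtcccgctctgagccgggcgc
E2F7: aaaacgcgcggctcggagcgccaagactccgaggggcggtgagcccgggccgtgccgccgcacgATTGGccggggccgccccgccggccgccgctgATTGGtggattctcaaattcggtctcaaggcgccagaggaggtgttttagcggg
The mitotic genes CENPA, CCNB2 and PLK1 carry TTTGAA close to the start, each with at least 1 CCAAT box further upstream, in either orientation. CCNA2 carries 1 CCAAT box and BUB1 carries 2, but neither has a CHR match in this stretch. In the full window BUB1 has 1 CHR match and CCNA2 has 0. Variants of the CHR letters other than those named above were not searched. CDT1 carries an E2F match, read here on the opposite strand, CDC6 carries 3 CCAAT boxes, and CCNE1 carries none of the 3 sets in this stretch. The full window of CDC6 also holds 1 E2F match, which lies outside this stretch. A match is a description of the letters and not evidence of a bound factor.

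Most of the 54 genes had lower mean levels in EZHi than in vehicle libraries, by small amounts. The difference was negative for 48 of 54 genes, with a median of -0.19, against -0.0077 over all 20153 genes tested and -0.094 over the 7809 genes at 10 estimated FPKM or more, the range in which 49 of the 54 lie. With limma fitted across all genes and group as the only term (Benjamini-Hochberg adjustment), 6 genes were called lower at an adjusted p under 0.05, which is 11.1% of the 54 against 4.27% of all genes and 9.16% of genes at 10 or more. None of the 54 was called higher, against 8.85% of all genes and 2.73% of genes at 10 or more. The share of calls in this fit is thus near that of other genes of similar level. It also rested on single libraries, as the number called lower was 14 (25.9%, against 4.27% of all genes and 9.21% of genes at 10 or more in that fit) without vehicle replicate 3 and 1 or 2 without any other library except EZHi replicate 1. AURKA stayed called in all 8 fits that left out 1 library and BUB1B in all but the fit without vehicle replicate 4 (limma adjusted p = 0.0507). CCNA2, CDT1 and BUB1 were called only without EZHi replicate 1 or vehicle replicate 3, and PTTG1 only without EZHi replicate 1, with limma adjusted p values of up to 0.0797, 0.101, 0.121 and 0.107 in the other fits.

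Libraries with equal replicate number deviated from their group means together, with correlations of 0.216 to 0.634 across genes, and the replicate number was therefore also fitted as a block. In this paired fit 33 of the 54 genes were called lower (61.1%), 18 of the G1/S and 15 of the G2/M class, against 15.1% of all genes and 32.5% of genes at 10 or more. It called 3 genes higher (5.56%), CCNE1, E2F7 and CCND1, against 14.9% and 8.20%. The median difference over all genes tested was -0.0077, while genes at 10 or more were lower in EZHi libraries by 0.075 on average. When each library was centred on these genes, the paired fit called 17 genes lower (31.5%) against 8.32% of all genes and 18.1% of genes at 10 or more, and after quantile normalization it called 11 lower (20.4%) against 14.0% and 16.5%. The same 3 genes were called higher under both scalings, against 20.4% of all genes and 14.0% of genes at 10 or more after centring and 13.8% and 14.4% after quantile normalization. With the median of ratios it called 34 lower (63.0%) against 15.8% and 33.6%. The distance to other genes of similar level was thus about as large after the median of ratios as without rescaling, and smaller after centring and after quantile normalization. Of the 33 genes called lower, 14 were called in each of the 4 paired fits that left out 1 pair, as was CCNE1 among the 3 called higher. The share of all genes that kept a call in this way was not computed.

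Whole groups separated for fewer genes. All 4 EZHi libraries lay below all 4 vehicle libraries for 10 genes (18.5%), against 7.93% of all genes and 16.1% of genes at 10 or more. These were CDT1 of the G1/S class and CCNA2, PTTG1, AURKA, PLK4, BUB1, BUB1B, CENPA, KIF11 and KIF23 of the G2/M class. In none of the 54 did all EZHi libraries lie above all vehicle libraries, against 10.7% and 3.78%. The EZHi library was the lower in 4 of 4 pairs for 34 genes (63.0%), against 24.2% and 44.6%, and the higher in 4 of 4 pairs for 3 genes (5.56%), against 20.6% and 11.6%.

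**Figure D1:**
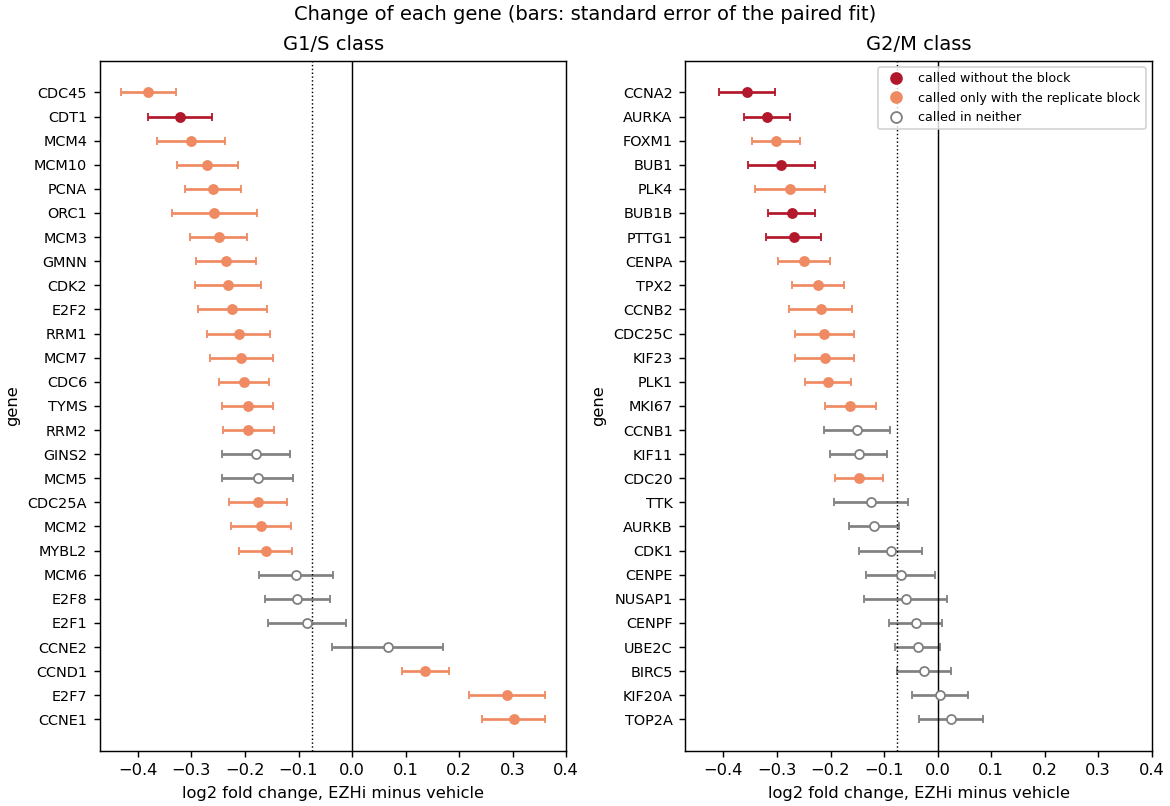
Log2 fold change (EZHi minus vehicle, x axis) of each gene (y axis) in the G1/S (left) and G2/M (right) class, with bars for the standard error of the paired fit and a dotted line at the mean difference of genes at 10 estimated FPKM or more (-0.075). Filled dark red points are called without the block (1 G1/S and 5 G2/M genes), orange points only with it, and open grey points in neither, and most points lie left of 0.

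Among the 10 licensing genes every mean difference was negative, from -0.32 to -0.10, and CDT1 was the only one called without the block. CDT1 (chr16:88803789-88809258, plus strand), the loader of the MCM helicase that geminin inhibits, was at 11.38, 11.25, 11.14 and 11.31 in vehicle replicates 1 to 4 and at 11.13, 10.94, 10.95 and 10.77 in EZHi replicates 1 to 4. Every EZHi library was below every vehicle library. The difference was -0.32 ± 0.086 (SE), with limma adjusted p = 0.0357, and 0.00414 with the block. MCM4, a subunit of the MCM2-7 helicase, was at 11.95, 11.94, 11.37 and 11.82 in vehicle and 11.73, 11.60, 11.24 and 11.30 in EZHi libraries, a difference of -0.30 ± 0.15 (SE). The third library was the lowest of each group and the groups overlapped, and the limma adjusted p was 0.243 without and 0.0072 with the block. ORC1, the largest subunit of the origin recognition complex, was at 8.79, 8.61, 8.01 and 8.52 in vehicle and 8.52, 8.31, 8.03 and 8.04 in EZHi libraries, with the third vehicle library below all EZHi libraries. Its difference was -0.26 ± 0.17 (SE), with limma adjusted p = 0.389 and 0.039 with the block, a call kept only in 1 of the 4 paired fits that left out 1 pair (without replicate 3, -0.35, adjusted p = 0.014) and lost without pairs 1, 2 and 4 (0.118, 0.132 and 0.179). In the paired fit CDC6 (-0.20), GMNN (-0.24), which encodes the CDT1 inhibitor geminin, MCM3 (-0.25), MCM7 (-0.21) and MCM2 (-0.17, adjusted p = 0.0499 by limma) were also called lower, and MCM5 (-0.18) and MCM6 (-0.10) were not. Of the 8 licensing genes called in the paired fit, 4 were still called after centring and 2 after quantile normalization.

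The 3 origin-firing genes had a lower level in every pair. CDC45, which joins the MCM helicase to make it active, was at 9.01, 9.12, 8.48 and 8.82 in vehicle and 8.68, 8.71, 8.13 and 8.39 in EZHi libraries. The ranges overlapped, because the third vehicle library was below 2 EZHi libraries, but the pairs differed by -0.43 to -0.32. The difference was -0.38 ± 0.16 (SE), the largest of the 54, with limma adjusted p = 0.174 and 0.000694 with the block, where its 95% interval, like those below not adjusted for the number of genes, was -0.50 to -0.26. MCM10, which helps to fire origins, was at 9.39, 9.50, 8.95 and 9.24 in vehicle and 9.29, 9.19, 8.62 and 8.89 in EZHi libraries, a difference of -0.27 ± 0.16 (SE) with limma adjusted p = 0.33 and 0.00724 with the block. GINS2, of the GINS complex, differed by -0.18 and was called in neither fit. CDC45 and MCM10 were also called in the paired fit after centring and after quantile normalization.

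The 4 fork and nucleotide genes were called lower only in the paired fit. PCNA, the sliding clamp of the replicative polymerases, was at 12.46, 12.54, 11.74 and 12.21 in vehicle and 12.27, 12.19, 11.62 and 11.84 in EZHi libraries, and the third library was the lowest of each group. The groups overlapped over most of their ranges. The difference was -0.26 ± 0.19 (SE), with limma adjusted p = 0.446, and 0.00588 with the block. RRM1 (-0.21) and RRM2 (-0.19), the subunits of ribonucleotide reductase, and TYMS (-0.19), which makes thymidylate, had paired adjusted p values between 0.0147 and 0.0242 by limma. After centring PCNA alone of the 4 was called in the paired fit, and after quantile normalization none was.

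Of the 3 G1/S cyclins, CCNE1 and CCND1 were called higher in the paired fit and not without the block, opposite in sign to the replication machinery. CCNE1 (chr19:29811991-29824312, plus strand), the cyclin that activates CDK2 at the start of S phase, was at 9.35, 9.36, 8.85 and 9.18 in vehicle and 9.53, 9.61, 9.33 and 9.49 in EZHi libraries. Each EZHi library was above the vehicle library of its number, while the third EZHi library was below 2 vehicle libraries. The difference was 0.30 ± 0.12 (SE) with limma adjusted p = 0.13, and 0.00489 with the block, 0.000934 with the block after centring and 0.00101 after quantile normalization. The third vehicle library was the lowest by far, and without replicate 3 the paired difference was 0.24 (adjusted p = 0.0249). CCND1 (chr11:69641156-69654474, plus strand), cyclin D1, which responds to growth factors in G1, was at 12.58, 12.79, 12.51 and 12.54 in vehicle and 12.67, 12.88, 12.67 and 12.75 in EZHi libraries. It was higher in 4 of 4 pairs, but the difference of 0.14 ± 0.081 (SE) was small and the groups overlapped. Its limma adjusted p was 0.326, and 0.0434 with the block, a call lost when any of the 4 pairs was left out. CCNE2, the second cyclin E, differed by 0.067 (95% interval of the paired fit -0.17 to 0.30) and was called in neither fit. CDK2 (-0.23) and the phosphatase CDC25A (-0.17), which activates it, were called lower in the paired fit and not after centring.

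The S-phase transcription factors did not move as 1 group. E2F7 (chr12:77021248-77065569, minus strand), an atypical E2F that represses E2F targets, was at 7.63, 7.69, 7.15 and 7.62 in vehicle and 7.82, 7.92, 7.64 and 7.86 in EZHi libraries. The EZHi library was higher in every pair, with a difference of 0.29 ± 0.13 (SE), limma adjusted p = 0.181 and 0.0152 with the block. Without replicate 3, whose vehicle library was the lowest, the paired difference was 0.22 with adjusted p = 0.0596, and it was called in 2 of the 4 paired fits that left out 1 pair. E2F1, the activator best known for S-phase entry, was at 9.68, 9.59, 9.14 and 9.74 in vehicle and 9.56, 9.56, 9.29 and 9.41 in EZHi libraries. The ranges overlapped throughout, the difference was -0.084 ± 0.13 (SE) and the limma adjusted p was 0.747, and 0.447 with the block. E2F8, the second atypical factor, differed by -0.10 (paired interval -0.24 to 0.036) and was not called. E2F2 (-0.22) and MYBL2 (-0.16), which encodes B-MYB, were called lower in the paired fit and not after centring, and E2F2 was called again after quantile normalization.

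**Figure D2:**
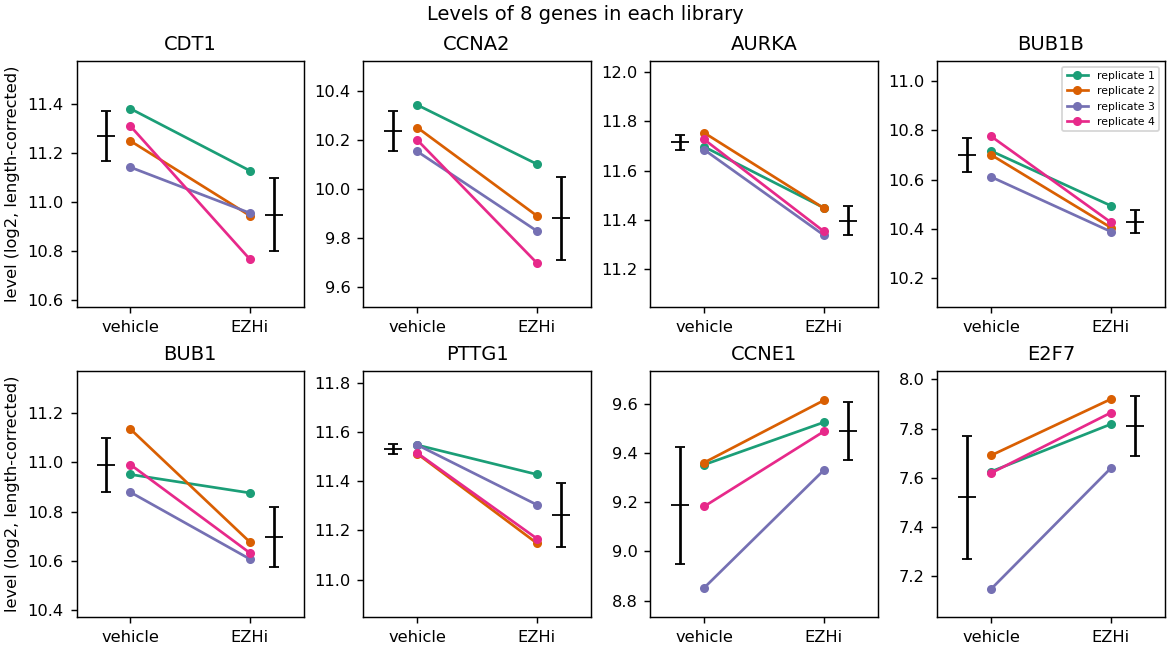
Level (log2, length-corrected, y axis) of 8 genes in vehicle and EZHi libraries, with lines joining libraries of the same replicate number, black marks for the mean and SD of each group (n = 4) and the same height of axis (1 log2 unit) in each panel. CDT1, CCNA2, AURKA, BUB1B, BUB1 and PTTG1 are lower in every EZHi library than in every vehicle library, whereas CCNE1 and E2F7 are higher within each pair, with an overlap of the groups.

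Of the mitotic cyclins and their regulators, CCNA2 had the largest difference. CCNA2 (chr4:121816444-121823883, minus strand), cyclin A2, which acts from S phase until mitosis, was at 10.34, 10.25, 10.15 and 10.20 in vehicle and 10.10, 9.89, 9.83 and 9.70 in EZHi libraries. The groups did not overlap. The difference was -0.36 ± 0.089 (SE) with limma adjusted p = 0.027, and 0.00118 with the block. CDK1, the kinase that drives mitotic entry, was at 11.30, 11.51, 11.45 and 11.38 in vehicle and 11.44, 11.29, 11.33 and 11.24 in EZHi libraries, with overlapping groups and a lower level in EZHi in 3 of 4 pairs. The difference was -0.088 ± 0.069 (SE), which turned to 0.028 after quantile normalization, and the limma adjusted p was 0.472, and 0.318 with the block. CCNB2 (-0.22) and CDC25C (-0.21), a phosphatase that activates CDK1, were called lower in the paired fit and not after centring, and CCNB1 (-0.15, paired interval -0.29 to -0.012) was not called. The cyclins can be set side by side in the order of their use in the cycle. CCND1, CCNE1 and CCNE2 differed by 0.14, 0.30 and 0.067, and CCNA2, CCNB2 and CCNB1 by -0.36, -0.22 and -0.15. CCNE2 was called in neither fit, and its difference turned to -0.11 after quantile normalization. Among further genes that control the cycle, the cyclin genes CCND2 and CCND3 differed by 2.47 and -0.12. The differences between these values were not tested.

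FOXM1 (chr12:2857680-2877174, minus strand), the forkhead factor that activates G2/M genes, was at 10.46, 10.49, 10.05 and 10.42 in vehicle and 10.11, 10.15, 9.83 and 10.12 in EZHi libraries. The third vehicle library, at the low end, overlapped the EZHi group, while every pair was lower in EZHi, with differences of -0.35 to -0.22. The difference was -0.30 ± 0.11 (SE), with limma adjusted p = 0.118 without and 0.0012 with the block, and 0.00456 and 0.00905 with the block after centring and after quantile normalization.

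The spindle kinases and checkpoint genes held 3 of the 6 genes called without the block. AURKA (chr20:56369389-56392337, minus strand), the kinase that builds the spindle poles, was at 11.70, 11.75, 11.68 and 11.73 in vehicle and 11.45, 11.45, 11.34 and 11.35 in EZHi libraries. The gap between the lowest vehicle and the highest EZHi library was larger than the spread within either group. The difference was -0.32 ± 0.056 (SE) with limma adjusted p = 0.00451, and 0.000675 with the block. AURKA was the only gene of the 54 still called without the block after centring and after quantile normalization. BUB1B (chr15:40161023-40221123, plus strand), the checkpoint protein BUBR1, was at 10.72, 10.70, 10.61 and 10.78 in vehicle and 10.49, 10.41, 10.39 and 10.43 in EZHi libraries. These groups did not overlap either, and the difference was -0.27 ± 0.059 (SE) with limma adjusted p = 0.0138, and 0.00198 with the block. BUB1 (chr2:110637528-110678063, minus strand), its partner at the kinetochore, was at 10.95, 11.14, 10.88 and 10.99 in vehicle and 10.88, 10.68, 10.61 and 10.63 in EZHi libraries. The groups touched without overlapping, the third vehicle library being next to the first EZHi library, and the difference of means was -0.29 ± 0.081 (SE) with limma adjusted p = 0.0422, and 0.00781 with the block. PLK4, which starts centriole duplication, was at 9.32, 9.31, 9.28 and 9.33 in vehicle and 9.23, 8.90, 9.08 and 8.94 in EZHi libraries, without overlap. It missed the threshold without the block (-0.28 ± 0.08 (SE), limma adjusted p = 0.0516) and passed it with the block (0.0123). Of the others, PLK1 (-0.20), the kinase of mitotic entry and exit, was called lower in the paired fit, and AURKB (-0.12), TTK (-0.12) and BIRC5 (-0.025), which encodes survivin, were not.

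PTTG1 (chr5:160421855-160428739, plus strand), which encodes securin, the inhibitor of sister chromatid separation, was at 11.55, 11.51, 11.55 and 11.51 in vehicle and 11.43, 11.15, 11.30 and 11.17 in EZHi libraries. The vehicle libraries lay close together and all above the EZHi libraries, and the difference was -0.27 ± 0.072 (SE) with limma adjusted p = 0.0355, and 0.00456 with the block. CDC20 (-0.15), the activator of the anaphase-promoting complex, was called lower in the paired fit only, and UBE2C (-0.037), its ubiquitin-conjugating enzyme, in neither.

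CENPA, the histone H3 variant that marks centromeres, was at 9.62, 9.84, 9.59 and 9.80 in vehicle and 9.46, 9.51, 9.35 and 9.52 in EZHi libraries. The groups did not overlap, with a difference of -0.25 ± 0.078 (SE) and a limma adjusted p of 0.0656, and 0.00475 with the block. The other centromere genes, CENPE (-0.069) and CENPF (-0.041), were not called. Among the spindle genes, TPX2 (-0.22), the activator of AURKA, and KIF23 (-0.21), a kinesin of cytokinesis, were called lower in the paired fit, and KIF11 (-0.15), KIF20A (0.0049) and NUSAP1 (-0.06) were not. MKI67, the proliferation marker Ki-67 that coats mitotic chromosomes, was at 11.13, 11.08, 10.87 and 11.15 in vehicle and 10.91, 10.87, 10.84 and 10.95 in EZHi libraries. The third vehicle library was below the highest EZHi library, and the difference was -0.16 ± 0.072 (SE) with limma adjusted p = 0.185, and 0.0312 with the block. After centring its paired adjusted p was 0.203, again by limma, and it was called in 1 of the 4 paired fits that left out 1 pair. TOP2A, which had the highest estimated FPKM of the 54, differed by 0.024 with a paired interval of -0.11 to 0.16 and was called in neither fit.

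The 2 classes differed between treatments by about the same amount. The mean level of the G1/S class was 10.09 ± 0.23 (SD, n = 4) in vehicle and 9.94 ± 0.19 in EZHi libraries, and that of the G2/M class was 10.49 ± 0.079 and 10.32 ± 0.073. The differences within pairs 1 to 4 were -0.13, -0.17, -0.054 and -0.25 for the G1/S class and -0.078, -0.24, -0.13 and -0.23 for the G2/M class. In both classes the EZHi library was thus lower in 4 of 4 pairs, while the groups overlapped in both. The group differences of -0.15 (G1/S) and -0.17 (G2/M) became -0.076 and -0.093 after centring and -0.084 and -0.076 after quantile normalization. The difference of G2/M from G1/S changed by -0.017 between treatments, with 0.053, -0.072, -0.072 and 0.025 in the 4 pairs (SD 0.065), which is less than the spread between pairs and has no common sign. Roles within the classes spread more widely, as described by their means without a test. The mean difference was -0.28 for the firing genes, -0.22 for licensing, -0.21 for fork and nucleotide genes, -0.20 for mitotic kinases and checkpoint genes and -0.20 for mitotic cyclins and their regulators, whereas it was -0.12 for centromere genes, -0.056 for G1/S transcription factors and 0.020 for G1/S cyclins, CDK2 and CDC25A.

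**Figure D3:**
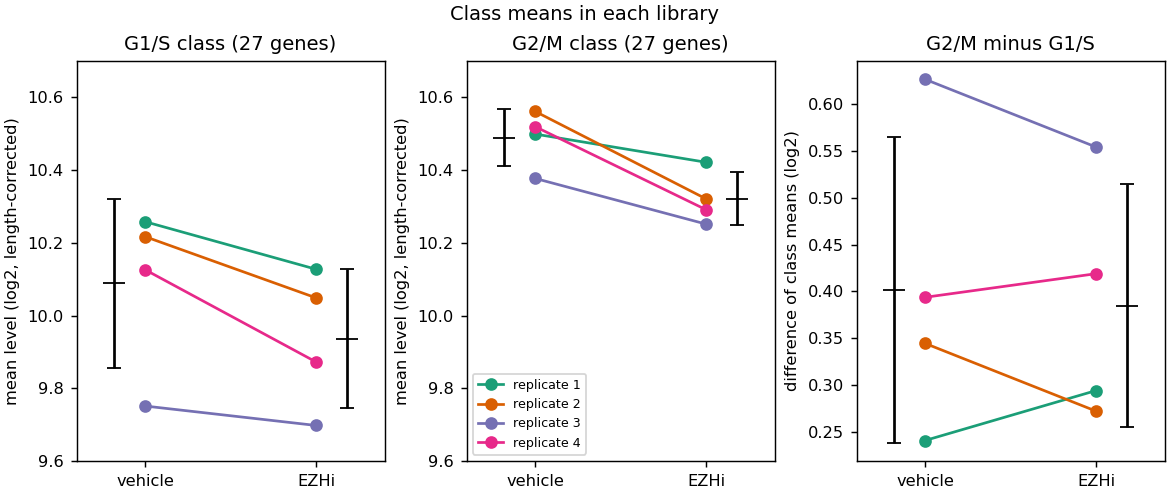
Mean log2 level of the 27 G1/S genes (left), the 27 G2/M genes (middle) and their difference (right) in each library, with lines joining libraries of the same replicate number and black marks for the mean and SD of each group (n = 4). Each line falls in the left and middle panels, the third replicate is lowest in the G1/S panel in both groups, and the lines of the right panel have no common direction.

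Spread between replicate numbers was larger than the treatment difference for most replication genes. For each gene, the mean of both libraries of a number was taken, and the range of these 4 means was compared with the size of the treatment difference, a comparison chosen after the values were seen. The range exceeded the difference for 26 of 27 G1/S genes, the exception being CDT1, and for 16 of 27 G2/M genes. The share of all genes for which it does so was not computed, so these counts cannot be set against other genes. The range had a median of 0.47 in the G1/S and 0.17 in the G2/M class. It was widest for CDC6 (0.872), the ATPase that loads the MCM helicase, followed by E2F2 (0.751) and GINS2 (0.716). Replicate 3 was the lowest library of both groups for 38 of the 54 genes (70.4%), 24 of the G1/S and 14 of the G2/M class, against 18.2% of all genes and 26.9% of genes at 10 or more. The G1/S mean of the third library differed from the mean of its group's other libraries by -0.45 in vehicle and -0.32 in EZHi, and the MCM2 to MCM7 mean by -0.57 and -0.33, whereas the mean of all genes at 10 or more differed by -0.0077 and -0.012. For the G2/M class the values were -0.15 and -0.093. The labels do not say what a replicate number stands for. Without replicate 3 in either group, the paired fit called 17 G1/S and 13 G2/M genes lower (55.6% of the 54), against 9.40% of all genes and 20.1% of genes at 10 or more.

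**Figure D4:**
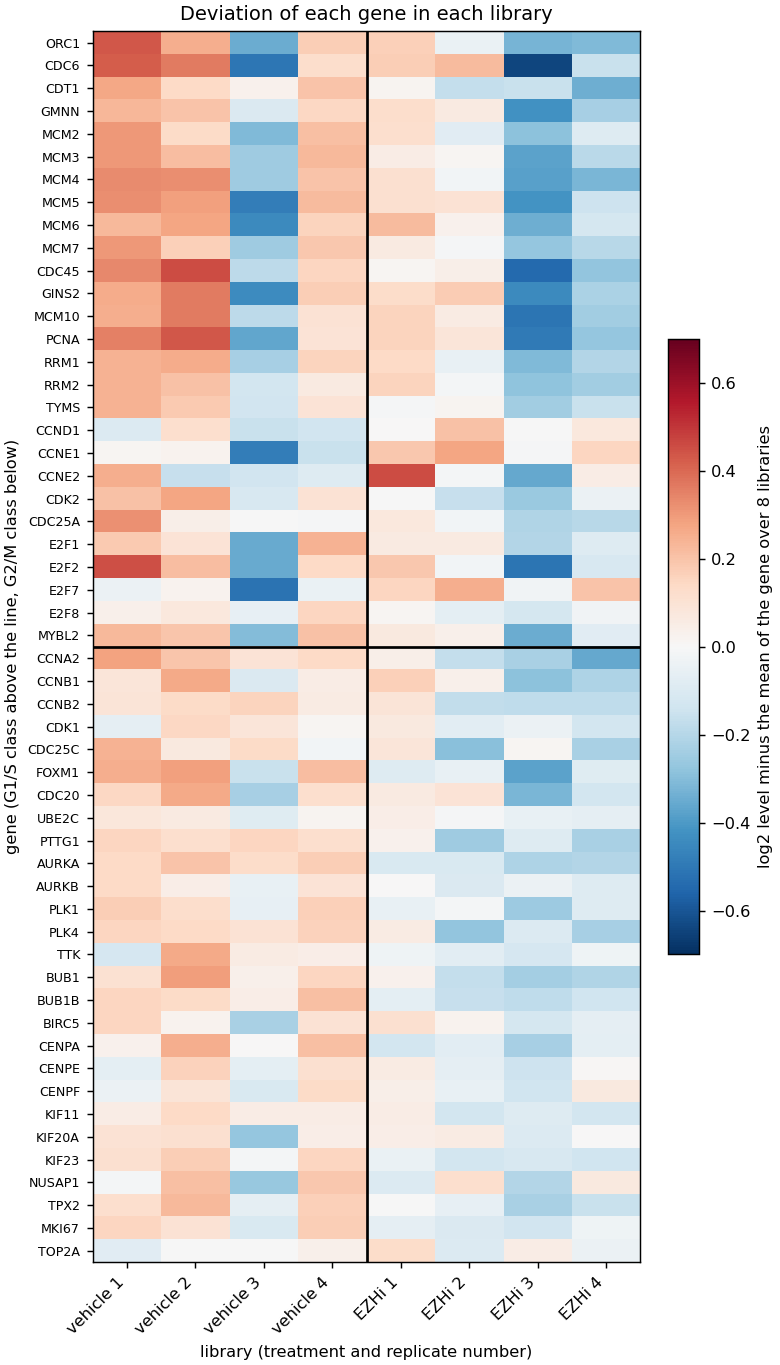
Deviation of each gene (rows, G1/S class above the line and G2/M class below) from its own mean over 8 libraries (columns, vehicle left and EZHi right of the line), in log2 units from blue (lower) to red (higher). The third column of each group is blue over most G1/S genes, and the vehicle columns other than the third are mostly red.

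**Figure D5:**
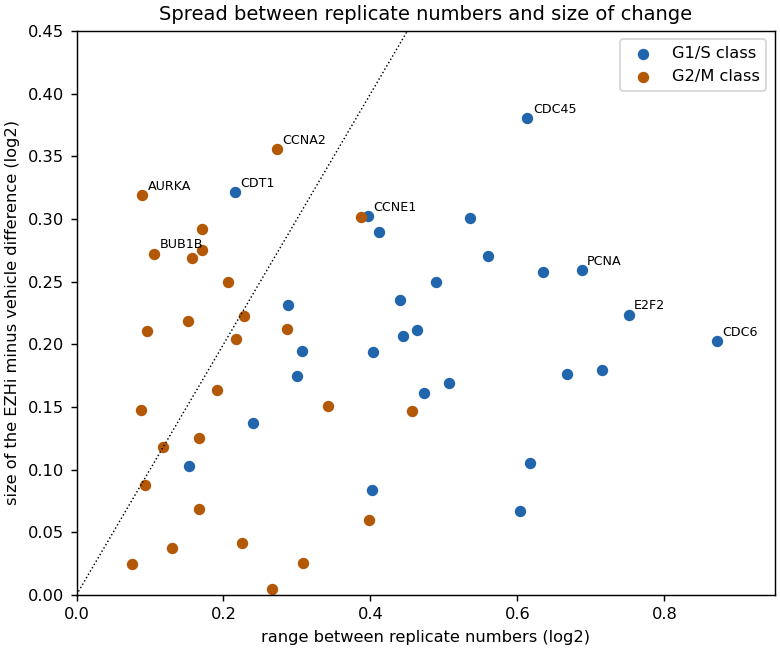
Range of the means of the 4 replicate numbers (x axis, log2) against the size of the EZHi minus vehicle difference (y axis, log2) for 27 G1/S (blue) and 27 G2/M (orange) genes, with a dotted line where both are equal. All G1/S genes but CDT1 lie right of the line, while AURKA, BUB1B and CCNA2 are among the 11 G2/M genes left of it.

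Other genes of the same machinery, listed by function, were measured as a wider context. Of 49 further replication genes tested, 2 were called lower (4.08%) and 0 higher by limma without the block, and 25 lower (51.0%) with it, with a median difference of -0.17. Without the block 4.27% of all genes and 9.16% of genes at 10 or more were called lower, and 8.85% and 2.73% higher. With the block 15.1% and 32.5% were called lower. Without rescaling and with all 8 libraries, the share of replication genes called lower was thus above those of other genes only with the block. Without vehicle replicate 3 and without the block it was 16.3%, against 4.27% of all genes and 9.21% of genes at 10 or more. In the paired fit it was 22.4% after centring, against 8.32% and 18.1%, and 22.4% after quantile normalization, against 14.0% and 16.5%. The 2 genes called without the block in the fit of all 8 libraries were RFC1 (-0.39 ± 0.084 (SE), limma adjusted p = 0.0133), the large subunit of the clamp loader that places PCNA on DNA, and the origin recognition subunit ORC2 (-0.21 ± 0.058, adjusted p = 0.0452 by limma). RFC1 was called in each of 8 fits that left out 1 library, ORC2 in 0. Of 58 further mitosis genes, 5 were called lower (8.62%) and 0 higher, and 17 lower with the block (29.3%), with a median of -0.13. The largest differences among the called genes were those of ECT2 (-0.47 ± 0.11 (SE), limma adjusted p = 0.0192), the exchange factor that activates RhoA in cytokinesis, CENPH (-0.37 ± 0.10, limma adjusted p = 0.0464), an inner kinetochore subunit, and the microtubule-depolymerizing kinesin KIF2C (-0.29 ± 0.060, limma adjusted p = 0.0118). KIF2C was called in each of 8 fits that left out 1 library, ECT2 in 6 and CENPH in 3. For these further mitosis genes the shares of calls are thus no higher than the 9.16% and 32.5% of genes at 10 or more. In the paired fit 12.1% were called lower after centring and 17.2% after quantile normalization, against 18.1% and 16.5% of genes at 10 or more.

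Among 36 further genes that control the cycle, the calls went both ways and included differences larger than any among the 54. CDKN2A, whose gene-level value adds up the transcripts of the CDK inhibitor p16 and of ARF, was at 6.47 ± 0.18 (SD, n = 4) in vehicle and 8.93 ± 0.28 in EZHi libraries. The difference of 2.46 ± 0.15 (SE) had a limma adjusted p of 8.06e-06. CCND2, cyclin D2, was at 3.04 ± 0.59 (SD, n = 4) in vehicle and 5.51 ± 0.51 in EZHi libraries, a difference of 2.47 ± 0.32 (SE) with limma adjusted p = 0.00075, at a low level of 1.10 estimated FPKM. The lower genes were CDKN1B (-0.31 ± 0.060 (SE), limma adjusted p = 0.00741), which encodes the CDK inhibitor p27, CDC25B (-0.29 ± 0.060, limma adjusted p = 0.0106), a phosphatase that activates CDK1, and LIN52 (-0.27 ± 0.067, limma adjusted p = 0.0252), a subunit of the complex that binds CHR elements. The median of this list was -0.095, while its mean was 0.046, so the signs differ. With the block 12 of the 36 were called lower (33.3%) and 4 higher (11.1%), near the 32.5% and 8.20% of genes at 10 or more. CDKN2A, CCND2, CDKN1B and CDC25B were called in each of 8 fits that left out 1 library, and LIN52 in 3. CDKN1A, which encodes the CDK inhibitor p21, differed by -0.015 ± 0.20 (SE, limma adjusted p = 0.977), and CDK4 by 0.0085 ± 0.096 (limma adjusted p = 0.973).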

How the data were processed

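RNA-seq was performed on HepG2 cells exposed to EZHi or vehicle, with 4 libraries per group, and the titles of the samples gave the group and the replicate number. The extract was total RNA, prepared with an mRNA library kit and sequenced as paired reads of 150 bp. Tools are credited to the submitters' processing notes and parameters to the published methods. The authors aligned to hg38 with HISAT2 2.2.1, assigned reads to genes with HTSeq 0.9.1 (exons, union mode, unstranded) at a minimum alignment quality of 10, and normalized with DESeq2 1.40.2. The deposited table is named as FPKM, but its values are log2 (a regularized log corrected for transcript length) and ran from -6.81 to 19.01. The regularized log shrinks differences of genes with few reads, and scaling hides the depth of each library, so no counting interval can be given and a count model was not used.

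Of 25604 rows, 1 repeated a gene and was dropped. Values multiplied back by the mean transcript length of GENCODE release 44 (25594 genes matched) summed to 24.4 to 27.3 per library in units of 1e6 normalized reads, and their mean of 25.6 gave the estimated FPKM. The 20153 genes at 0.1 or more were tested with limma 3.58.1 in R 4.3.3 (trended prior, two-sided, group as the only term, Benjamini-Hochberg over all genes tested, called at 0.05), a script tested on simulated data. The fit was repeated with the replicate number as a block, since the 4 same-number pairs correlated at 0.31, 0.558, 0.634 and 0.216, all above 0.1, while libraries of different number correlated at -0.582 to 0.199. The pairing rests on the shared numbers in the titles and on this check, and p values measure the spread between these libraries. Centring on genes at 10 estimated FPKM or more, quantile normalization, the median of ratios, a filter at 1 or none, a pseudocount of 0.5 on the estimated FPKM scale and leaving out each library were tried, and the paired fit with quantile normalization, with the median of ratios and without each pair was added after seeing the data. Figures and tables were made with Python 3.11.15, pandas 2.3.3 and matplotlib 3.10.9.

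The 54 genes, their classes and the further lists were chosen with earlier results of these data known, so no test over a list was made. Values per library are given for up to 8 genes of each class with the largest absolute change among those called in either fit, and for MKI67, PCNA, CCND1, CCNE1, CDK1, E2F1 and FOXM1, and from each further list up to 3 genes with the highest and the lowest change among those called, together with CDKN1A and CDK4, which were named after their values were seen. Promoter windows were read from RefSeq, and 12 of the 54 genes had none there.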

Additional observations from a re-analysis of the deposited data

Results flagged for a closer look

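In each group of 4 libraries, the highest and the lowest library were compared with the nearest of the others by Dixon's test, at its 95% critical value. Of 114 groups examined, over the 54 genes and the class means, 11 had a library that stood apart, where chance gives about 5.7. The third vehicle library was the low one in 6 of them. It stood at 11.89 for MCM3, 11.18 for MCM5 and 9.41 for MCM6, which are helicase subunits, at 7.15 for E2F7, at 10.35 for MYBL2 and at 10.05 for FOXM1. The third EZHi library was low for FOXM1 as well, at 9.83. Of the others, the first vehicle library was high for CCNE2 (5.96) and CDC25A (9.04), the second vehicle library was high for KIF11 (9.93), and the first EZHi library was high for CCNB2 (10.87). The labels do not say what a replicate number stands for. Without the third vehicle library the FOXM1 difference was -0.40 (adjusted p = 0.018 by limma without the block), against -0.30 (0.118) with it. Without replicate 3 in both groups, the paired differences by limma were -0.33 (adjusted p = 0.00512) for FOXM1, -0.29 (0.0179) for MCM3, -0.26 (0.0227) for MCM5, -0.17 (0.128) for MCM6, -0.20 (0.0408) for MYBL2 and 0.22 (0.0596) for E2F7, so that MCM5 gained and E2F7 lost its call.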

How the results depend on the processing

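The number of genes called moved with the pairing, the scaling and single libraries or pairs. In place of 6 of the 54 (1 G1/S and 5 G2/M genes lower), the fit with the replicate block called 36 (18 and 15 lower), and 37 (19 and 15 lower) after the median of ratios, 20 (7 and 10 lower) after centring and 14 (5 and 6 lower) after quantile normalization. Without the block, centring and quantile normalization each left 1 (0 and 1). Leaving out 1 library gave 1 to 14 genes called, 0 to 4 in the G1/S and 1 to 10 in the G2/M class, and leaving out pairs 1, 2, 3 and 4 in turn from the paired fit gave 27, 21, 31 and 16 (G1/S genes lower 10, 10, 17 and 7, G2/M genes lower 15, 9, 13 and 8). Of these, shares over all genes were computed only for the fit without vehicle replicate 3 and the paired fit without pair 3, both given above. The other counts can therefore not be set against other genes. For the further replication, mitosis and control genes, 2, 5 and 5 calls became 25, 17 and 16 with the block, 25, 18 and 16 with the median of ratios as well, 11, 7 and 11 with centring, and 11, 10 and 10 with quantile normalization. In these paired fits every call of a replication or mitosis gene was lower, and their shares after centring and quantile normalization are given above. Of the control genes 16.7% were called lower and 13.9% higher after centring, against 18.1% and 14.0% of genes at 10 or more. After quantile normalization 16.7% were called lower, against 16.5%. Without the block the calls of these lists became 1, 1 and 5 after centring and 0, 1 and 2 after quantile normalization. They ranged over 1 to 8, 1 to 6 and 4 to 7 without 1 library, and over 8 to 19, 9 to 18 and 8 to 13 without 1 pair. The class differences ranged from -0.26 to -0.072 (G1/S) and -0.21 to -0.14 (G2/M) without 1 library, lowest for the G1/S class without vehicle replicate 3, and they were -0.076 and -0.093 after centring and -0.084 and -0.076 after quantile normalization. The difference between the classes ranged from -0.073 to 0.058. CDK1 turned from -0.088 to 0.028 after quantile normalization, with or without the block. Of the 20 genes named by the rule, no other changed sign under the settings run. The filters, the pseudocount and the median of ratios without the block moved the count of the 54 to between 5 and 7. The causes of these changes were not tested.

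Depth is unknown, so no counting error can be given, and shrinkage of low values, which was not measured, applies to genes with few reads.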
